A study of Rattus norvegicus with 15 samples.

Results

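The levels of 9 rat genes of salt and water transport across the alveolar wall were described in lung RNA: the epithelial sodium channel subunits Scnn1a, Scnn1b and Scnn1g, the aquaporins Aqp1, Aqp3, Aqp4 and Aqp5, the sodium pump subunit Atp1b1 and the chloride channel Cftr. They were chosen by name, with earlier results of these data known, so counts set beside all genes are descriptions and not tests. Each stood on 1 line of the deposited table, and all 9 of 9 passed the filter on low values among 22250 genes in all. RNA sequencing had been done on 15 lung libraries from wild-type (WT) rats in 3 groups of 5. The SJY group received lipopolysaccharide (LPS, a bacterial cell wall component) into the trachea and Sang Ju Yin, a herbal formula, into the stomach. The ALI group, for acute lung injury, received LPS into the trachea alone. The control group was normal rats, and a group given the instillation without LPS is not named. Strain, age, sex, dose and time after LPS are not stated, nor whether each library came from a separate animal, so the p-values measure the spread between these libraries.

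Fluid leaves the airspaces when sodium enters epithelial cells through the apical channel ENaC and is pumped out at the base by the Na,K-ATPase, and water follows. ENaC is built from alpha (Scnn1a), beta (Scnn1b) and gamma (Scnn1g) subunits. The pump needs a catalytic alpha subunit and a beta subunit such as Atp1b1, which brings it to the membrane. In the lung, Aqp5 is best known as the water channel of type I cells, Aqp1 of capillary endothelium, and Aqp3 and Aqp4 of airway epithelium.

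Levels are FPKM (fragments scaled for gene length and library size), so genes can be compared with each other, but the reads behind a value are unknown. A library's values summed to between 495244 and 700068 FPKM. The library ALI 1 stood apart: 13 mitochondrial genes held 37.7% of its summed FPKM, against 5.19% to 17.1% in the other 14, and it was the lowest ALI library for 7 of the 9 genes. Of lung markers, the type II surfactant gene Sftpc was at 2476 FPKM in ALI 1 and at 8172 FPKM or more elsewhere. Fold changes are differences in mean log2(FPKM + 1), tested with limma over 13457 genes, and a gene counts as called where its p, adjusted by Benjamini-Hochberg, was under 0.05. Values of SJY 1, 3, 4, 5 and 6, of ALI 1 to 5 and of control 4 to 8 are listed by library number.

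In both LPS-treated groups the ENaC subunits and Atp1b1 were called lower than in control, and in ALI Aqp5 was too. In SJY every library lay below every control library for Aqp5, but the gene was not called. Against control, 5 of the 9 genes were called lower in ALI, where 9.56% of all genes tested were, and 0 were called higher, against 8.02% of all genes. In SJY 4 of the 9 were called lower than control, beside 18.1% of all genes, and 0 higher, beside 14.6%. The median log2 change of the 9 genes was −0.57 in ALI, against −0.12 over all genes, and −0.64 in SJY, against −0.11 over all genes. With median-of-ratios scaling, which moved the medians over all genes to 0.0011 and −0.0035, the same comparisons gave medians of −0.43 and −0.53 for the 9 genes. In either direction limma called 17.6% of all genes in ALI and 32.6% in SJY. At an unadjusted p under 0.05 it gave 6 of the 9 genes in ALI, beside 35% of all genes, and 5 in SJY, beside 43.6%. The group ranges lay apart from control, on the lower side, for 3 of the 9 genes in ALI, beside 6.73% of all genes, and for 4 in SJY, beside 15.9%. On the higher side they did so for 0 of the 9 in both, beside 6.17% of all genes in ALI and 11.8% in SJY.

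The counts were also taken without ALI 1 and with other scalings. Without ALI 1, 4 of the 9 genes were called lower in ALI (7.89% of all genes) and 5 in SJY (26.5%). With median-of-ratios scaling 1 gene was called higher and 5 lower in ALI (11% and 9.33% of all genes), and 0 higher and 4 lower in SJY (17.7% and 17%). Scaled without mitochondrial genes, 4 of the 9 were called in SJY, with 9.57% of all genes higher and 26.7% lower.

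**Figure D1:**
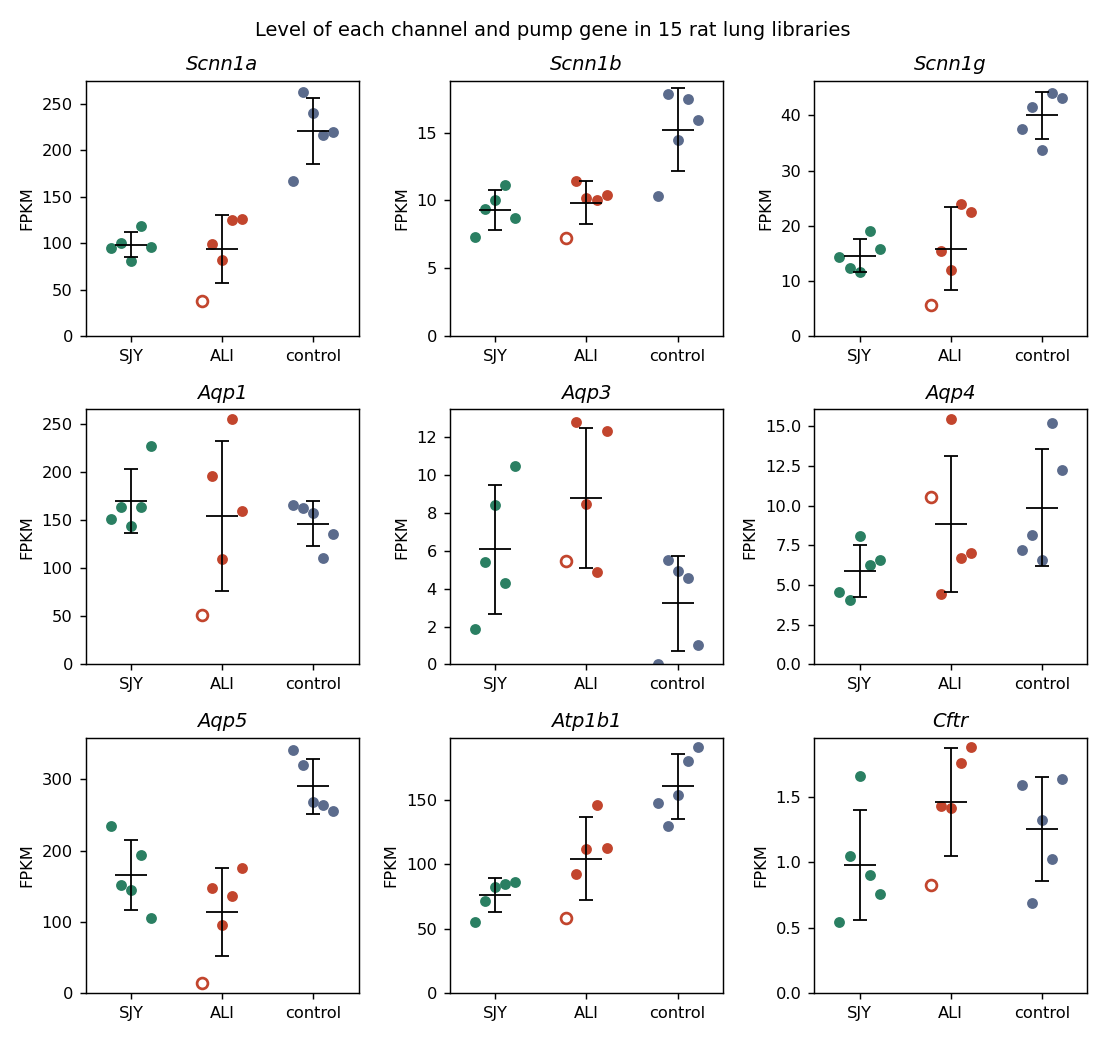
FPKM of each of the 9 genes (y axis, from 0) in every library of the SJY, ALI and control groups (x axis), with the mean and SD in black and ALI 1 as an open circle. Scnn1a, Scnn1g and Aqp5 lie lower in all SJY and ALI libraries than in any control library, while Aqp1, Aqp4 and Cftr overlap throughout.

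Scnn1a (ENSRNOG00000019368), the pore-forming subunit that ENaC cannot do without, was the most abundant of the 3 and fell in both LPS-treated groups. It stood at 95.2, 101, 80.9, 118 and 95.4 FPKM in SJY, at 37.6, 99.2, 82.0, 125 and 126 FPKM in ALI, and at 167, 263, 239.8, 216 and 219 FPKM in control. Neither LPS-treated group overlapped with control, and ALI 1 was the lowest library of all. The mean was 94.1 ± 36.6 FPKM in ALI and 221 ± 35.7 FPKM in control (SD, n = 5 each), a log2 fold change of −1.33 ± 0.26 SE (limma adjusted p = 0.00291). SJY averaged 98.1 ± 13.5 FPKM, 44.4% of the control mean (log2 fold change −1.16, limma adjusted p = 0.00367). Without ALI 1 the ALI change was −1.03 (limma adjusted p = 0.000335).

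Scnn1g (ENSRNOG00000017842), the gamma subunit, fell about as far. Its values were 14.3, 12.3, 11.5, 19.04 and 15.7 FPKM in SJY, 5.66, 15.4, 11.9, 23.9 and 22.5 FPKM in ALI, and 37.6, 41.5, 33.7, 44.1 and 43.1 FPKM in control. Every LPS-treated library was below every control library. The log2 fold change was −1.42 ± 0.28 SE in ALI (limma adjusted p = 0.00295) and −1.41 ± 0.28 SE in SJY (limma adjusted p = 0.00169), which left 39.6% and 36.4% of the control mean.

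Scnn1b (ENSRNOG00000030981), the beta subunit, fell less. It was at 7.27, 9.36, 10.04, 11.1 and 8.67 FPKM in SJY, at 7.24, 11.4, 10.2, 10.02 and 10.4 FPKM in ALI, and at 10.3, 17.9, 14.4, 17.5 and 15.9 FPKM in control. The lowest control library, control 4, lay among the LPS-treated ones. The log2 fold change was −0.57 ± 0.16 SE in ALI (limma adjusted p = 0.0241) and −0.64 ± 0.16 SE in SJY (limma adjusted p = 0.00732). The ALI call was lost without control 5, control 7 or control 8 (limma adjusted p from 0.0561 to 0.0675) and when only ALI and control were fitted (0.0565).

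The alpha transcript made up most of the ENaC message, at 80.4% of the 3 subunits' summed FPKM in SJY (79.0% to 82.3%), 78.0% in ALI (74.5% to 79.3%) and 79.8% in control (77.7% to 83.3%, means and ranges of 5). The beta share was 7.68 ± 1.31% in SJY and 9.20 ± 3.25% in ALI, against 5.47 ± 0.594% in control (SD, n = 5 each). Whether the subunits fell unequally was tested as a ratio within each library, among 24 tests of ratios in all. The ratio of Scnn1b to Scnn1a in FPKM was 0.0957 ± 0.0174 in SJY and 0.119 ± 0.0456 in ALI, against 0.0686 ± 0.00846 in control (SD, n = 5 each). It was higher than control by 0.76 log2 units in ALI and by 0.52 in SJY, with no overlap on the tested log2(FPKM + 1) scale (exact two-sided permutation p = 0.00794 each, the smallest that 5 against 5 allows, adjusted p = 0.0381). The plain FPKM ratios did overlap, with a lowest value of 0.0764 in SJY and 0.0799 in ALI and a highest value of 0.0809 in control. The ratio of Scnn1g to Scnn1b was 1.59 ± 0.347 in SJY and 2.71 ± 0.546 in control, a log2 difference of −0.77 (exact permutation p = 0.00794, adjusted p = 0.0381). In ALI it was 1.57 ± 0.678, a log2 difference of −0.85 from control (exact permutation p = 0.0238, adjusted p = 0.0952). Scnn1g to Scnn1a moved least, by −0.09 in ALI and −0.25 in SJY (exact permutation adjusted p = 0.75 and 0.267). The called ratios of ENaC subunits kept their direction but lost the call with a pseudocount of 0.1 (exact permutation adjusted p from 0.0635 to 0.0762) and without any 1 control library (0.0952 to 0.152), and that of Scnn1b to Scnn1a in SJY also without SJY 4 (0.0762).

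**Figure D2:**
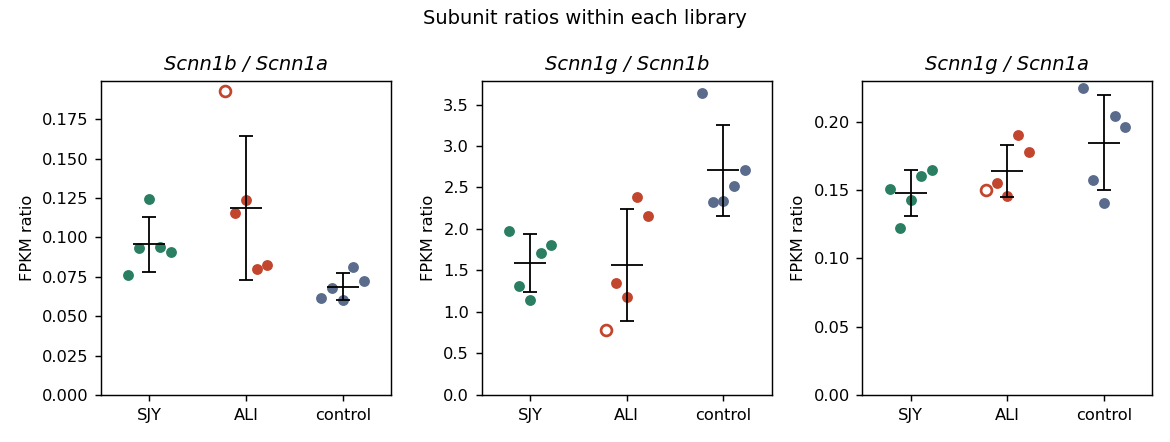
Ratio of FPKM between 2 subunit genes of the same library (y axis, from 0) in the SJY, ALI and control groups (x axis), with the mean and SD in black and ALI 1 as an open circle. Scnn1b over Scnn1a lies higher in ALI (0.119 on average) than in control (0.0686), and Scnn1g over Scnn1b lies lower in SJY (1.59) and ALI (1.57) than in control (2.71).

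Scnn1g and Scnn1b are next to each other among the protein-coding genes of the rat RefSeq list (assembly GRCr8). Their promoter windows are shown because the pair lies side by side while its ratio differed from control in SJY. Each runs from 250 bases before to 50 bases after the annotated start, 5′ to 3′ on the + strand in GRCr8 (RefSeq), at chr1:185735975-185736274 for Scnn1g and chr1:185861126-185861425 for Scnn1b. Capitals mark matches to the letters GGGCGG on either strand, known as a GC box.
Scnn1g: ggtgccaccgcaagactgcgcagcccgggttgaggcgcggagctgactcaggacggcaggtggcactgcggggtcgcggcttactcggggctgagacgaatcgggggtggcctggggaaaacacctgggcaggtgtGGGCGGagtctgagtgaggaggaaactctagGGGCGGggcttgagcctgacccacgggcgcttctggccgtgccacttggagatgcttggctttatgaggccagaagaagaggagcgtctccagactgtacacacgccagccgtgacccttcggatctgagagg
Scnn1b: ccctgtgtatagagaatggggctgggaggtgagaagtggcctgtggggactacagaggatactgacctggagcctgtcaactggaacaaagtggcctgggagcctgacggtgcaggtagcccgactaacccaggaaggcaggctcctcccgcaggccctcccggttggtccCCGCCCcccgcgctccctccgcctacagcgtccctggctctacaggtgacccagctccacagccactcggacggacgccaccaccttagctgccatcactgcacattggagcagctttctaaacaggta
The Scnn1g window held GC boxes at −114 and −83 from the start, both on the + strand, and the Scnn1b window held 1 at −79 on the other strand. Of 33469 promoter windows of 300 bases, 33.1% held a GC box. The windows held 21 CpG in Scnn1g and 12 in Scnn1b, against a median of 7 over all windows. Other letters were searched on both strands and were in neither window. The cAMP response element, spelled TGACGTCA, was in 1.83% of all windows. The minimal promoter element spelled TATAAA was in 14.2% of them. The E-box, spelled CACGTG, was in 6.42% of them. An NF-kB motif was in 1.53% of them and a glucocorticoid response element in 0.0149%.

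Atp1b1 (ENSRNOG00000002934), the beta-1 subunit of the sodium pump, had its lowest mean in SJY. It stood at 54.8, 71.7, 82.6, 84.5 and 85.8 FPKM in SJY, at 58.0, 92.0, 112, 146 and 113 FPKM in ALI, and at 148, 129, 154, 180.2 and 191 FPKM in control. All SJY libraries were below all control libraries, while ALI 4 reached into the control range. SJY averaged 75.9 ± 13.0 FPKM and control 160.5 ± 25.0 FPKM (SD, n = 5 each; log2 fold change −1.08 ± 0.20 SE, limma adjusted p = 0.00142). ALI averaged 104 ± 32.3 FPKM (log2 fold change −0.67 ± 0.20 SE against control, limma adjusted p = 0.0352). The ALI call was lost without ALI 1 (log2 fold change −0.48, limma adjusted p = 0.0524), without ALI 2, control 6, control 7 or control 8 (0.0631 to 0.0854) and with only ALI and control in the fit (0.0744).

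Other pump genes went both ways. Of 14 other Na,K-ATPase subunit and FXYD genes, 12 were tested, and 3 rose and 3 fell in ALI against control, with the same shares of all genes as above for background. In SJY 4 rose and 3 fell against control. The list's median log2 change was −0.12 in ALI and −0.17 in SJY, close to those of all genes. Fxyd2, the gamma regulator known from kidney, was at 157 ± 26.5 FPKM in SJY and 94.2 ± 36.1 FPKM in ALI, against 39.5 ± 4.39 FPKM in control (SD, n = 5 each; limma adjusted p = 2.39e-05 and 0.00346). Fxyd5, known as dysadherin, rose by 1.47 log2 units in SJY and 1.05 in ALI (limma adjusted p = 3.81e-06 and 0.000194). Fxyd7 averaged 1.80 ± 0.597 FPKM in SJY and 2.08 ± 1.43 FPKM in ALI, against 6.13 ± 1.87 FPKM in control (SD, n = 5 each; limma adjusted p = 0.00391 and 0.00862). Fxyd1 (phospholemman), a pump regulator, fell in ALI by 1.30 log2 units (limma adjusted p = 0.028), and the beta-2 pump subunit Atp1b2 fell in SJY by 0.87 (0.0284). The sister beta subunit Atp1b3, named after its values were seen, was at 208 FPKM in SJY, 169 FPKM in ALI and 159 FPKM in control on average, and was called higher in SJY (log2 fold change 0.40, limma adjusted p = 0.0329).

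Aqp5 (ENSRNOG00000051970) was the most abundant of the 9 genes in control lungs and was lower in every LPS-treated library. Its values were 234, 151, 144, 194 and 106 FPKM in SJY, 14.5, 147, 95.7, 135 and 176 FPKM in ALI, and 342, 319.7, 268, 265 and 256 FPKM in control. ALI 1 was far below the other ALI libraries. ALI averaged 114 ± 62.5 FPKM and control 290.1 ± 38.2 FPKM (SD, n = 5 each), 39.2% of control (log2 fold change −1.71 ± 0.49 SE, limma adjusted p = 0.0257). Without ALI 1 the fall was −1.08 (limma adjusted p = 0.00222), and without control 5 the call was lost (0.0575), as it was with only ALI and control in the fit (0.0683). SJY averaged 166 ± 49.4 FPKM, 57.2% of control, and was not called (log2 fold change −0.84 ± 0.49 SE, limma adjusted p = 0.198). The 3 groups share 1 estimate of spread, and without ALI 1 the same SJY difference had an adjusted p of 0.00297. The SJY difference was also called with only SJY and control in the fit (limma adjusted p = 0.00286) and with array weights (0.00117).

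Aqp1 (ENSRNOG00000011648), the endothelial water channel, was not called in any comparison. It stood at 151, 164, 144, 164 and 228 FPKM in SJY, at 51.8, 196, 110.2, 255 and 159.9 FPKM in ALI, and at 166, 163, 158, 111 and 136 FPKM in control. ALI held both the lowest and the highest library, and the groups overlapped. The log2 difference from control was 0.21 in SJY (95% interval −0.45 to 0.87) and −0.10 in ALI (−0.76 to 0.57), and the ALI value turned to 0.25 without ALI 1 and to 0.047 with median-of-ratios scaling. In the same libraries Aqp5 gave 47.3 ± 10.9% of the summed FPKM of the 4 aquaporins in SJY and 36.7 ± 12.0% in ALI, against 64.4 ± 2.29% in control (SD, n = 5 each). Aqp1 gave 49.1 ± 9.85% in SJY and 54.7 ± 8.41% in ALI, against 32.5 ± 2.87% in control.

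The promoter windows of Aqp5 and Aqp1 are shown because one gene fell in ALI and the other was not called. They run over the same span, 5′ to 3′ on the + strand in GRCr8 (RefSeq), at chr7:132601278-132601577 for Aqp5 and chr4:85812534-85812833 for Aqp1. Capitals mark the GC box, the E-box and the minimal promoter (TATA) element as spelled above, and no matches overlap.
Aqp5: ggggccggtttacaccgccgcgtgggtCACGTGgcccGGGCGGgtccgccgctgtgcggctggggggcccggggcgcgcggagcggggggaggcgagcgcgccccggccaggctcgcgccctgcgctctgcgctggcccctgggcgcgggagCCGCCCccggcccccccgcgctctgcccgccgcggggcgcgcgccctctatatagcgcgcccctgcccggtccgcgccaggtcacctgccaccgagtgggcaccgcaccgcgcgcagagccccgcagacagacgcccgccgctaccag
Aqp1: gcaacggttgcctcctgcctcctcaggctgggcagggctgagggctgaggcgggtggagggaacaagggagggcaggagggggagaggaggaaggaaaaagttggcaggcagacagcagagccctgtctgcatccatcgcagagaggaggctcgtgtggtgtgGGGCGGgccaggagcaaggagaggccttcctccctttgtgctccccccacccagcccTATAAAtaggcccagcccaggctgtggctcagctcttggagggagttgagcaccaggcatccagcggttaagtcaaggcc
The Aqp5 window held an E-box at −223 and GC boxes at −213 and, on the other strand, at −98. The Aqp1 window held a TATA box, searched as TATAAA, at −30 and a GC box at −87. The Aqp5 window held the letters TATATA, which that search does not match. Aqp5 had 49 CpG in its window, above the 95th percentile of 36 over all windows, and 82.3% G or C, while Aqp1 had 6 CpG and 64.0%. The NF-kB, glucocorticoid and cAMP letters as spelled above were in neither window, and other spellings were not searched. Of the 9 genes, 7 were matched in the promoter table.

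Aqp3 (ENSRNOG00000009797), which also carries glycerol, had a higher average in both LPS-treated groups than in control, with an unadjusted p under 0.05 in ALI, and was not called. It was at 1.84, 5.38, 8.41, 4.31 and 10.5 FPKM in SJY, at 5.47, 12.8, 8.48, 4.90 and 12.3 FPKM in ALI, and at 0.0437, 5.49, 4.96, 4.57 and 1.05 FPKM in control. The ranges overlapped, and control 4 was close to 0. The log2 difference from control was 1.44 ± 0.49 SE in ALI (limma adjusted p = 0.0559) and 0.90 ± 0.49 SE in SJY (0.175). With median-of-ratios scaling the ALI value was 1.54 and was called (limma adjusted p = 0.0287). It was also called without ALI 4, SJY 1 or control 5 (0.0436 to 0.0496) and with array weights (0.0388). Leaving out 1 library gave 1.01 to 1.67 in ALI and 0.47 to 1.19 in SJY, each lowest without control 4.

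Aqp4 (ENSRNOG00000016043) and Cftr (ENSRNOG00000055103) were low and not called. Aqp4 ran from 4.03 to 8.06 FPKM in SJY, from 4.46 to 15.5 FPKM in ALI, where ALI 3 was highest, and from 6.57 to 15.2 FPKM in control. Its log2 difference from control was −0.63 in SJY (95% interval −1.23 to −0.02, limma adjusted p = 0.102) and −0.19 in ALI (−0.79 to 0.42). The SJY difference was called when only SJY and control were fitted (limma adjusted p = 0.0399) and with array weights (0.0189). Cftr, the cAMP-gated chloride channel, ran from 0.540 to 1.66 FPKM in SJY, from 0.826 to 1.88 FPKM in ALI and from 0.690 to 1.64 FPKM in control. Its log2 difference was −0.19 in SJY (95% interval −0.58 to 0.20) and 0.13 in ALI (−0.26 to 0.52), on a scale that understates changes of genes near 1 FPKM.

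In control lungs the order of mean levels was Aqp5, Scnn1a, Atp1b1, Aqp1, Scnn1g, Scnn1b, Aqp4, Aqp3 and Cftr. Atp1b1 and Aqp1 did not differ beyond their spread there, and neither did Aqp3 and Cftr. In SJY the order was Aqp1, Aqp5, Scnn1a, Atp1b1, Scnn1g, Scnn1b, Aqp3, Aqp4 and Cftr, and in ALI Aqp1, Aqp5, Atp1b1, Scnn1a, Scnn1g, Scnn1b, Aqp4, Aqp3 and Cftr. Aqp1 led in both, at 170.0 ± 33.2 FPKM in SJY and 155 ± 78.1 FPKM in ALI, but its range overlapped that of Aqp5 in each. From Scnn1a and Atp1b1 down to Scnn1g there was a gap in every group, with no overlap.

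Setting SJY against ALI compares LPS plus the herbal formula with LPS alone. A group given LPS and the dosing into the stomach without the formula is not named. None of the 9 genes was called, with 0 at an unadjusted p under 0.05 by limma and 0 called with array weights, and 0.00743% of all genes were called by limma in either direction (11.8% at an unadjusted p under 0.05). The SJY and ALI ranges overlapped for all 9 genes, while over all genes 2.24% lay apart on the higher side and 0.988% on the lower. Without ALI 1 none was called either, while 1.35% of all genes were. The log2 difference of Scnn1a was 0.17 (95% interval −0.38 to 0.71), that of Scnn1b −0.07 (−0.41 to 0.27) and that of Scnn1g 0.01 (−0.58 to 0.60). Aqp5 averaged 166 FPKM in SJY and 114 FPKM in ALI, a log2 difference of 0.87 (−0.17 to 1.91) that was 0.24 without ALI 1. Atp1b1 averaged 75.9 FPKM in SJY and 104 FPKM in ALI, a difference of −0.41 (−0.84 to 0.03), or −0.60 without ALI 1 (limma adjusted p = 0.0709). For Aqp3 the difference was −0.54 (−1.59 to 0.51), for Aqp4 −0.44 (−1.05 to 0.16), for Cftr −0.32 (−0.71 to 0.06) and for Aqp1 0.30 (−0.36 to 0.97). These intervals still allow changes of either sign. Both comparisons against control use the same control libraries, so their likeness is not independent evidence.

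**Figure D3:**
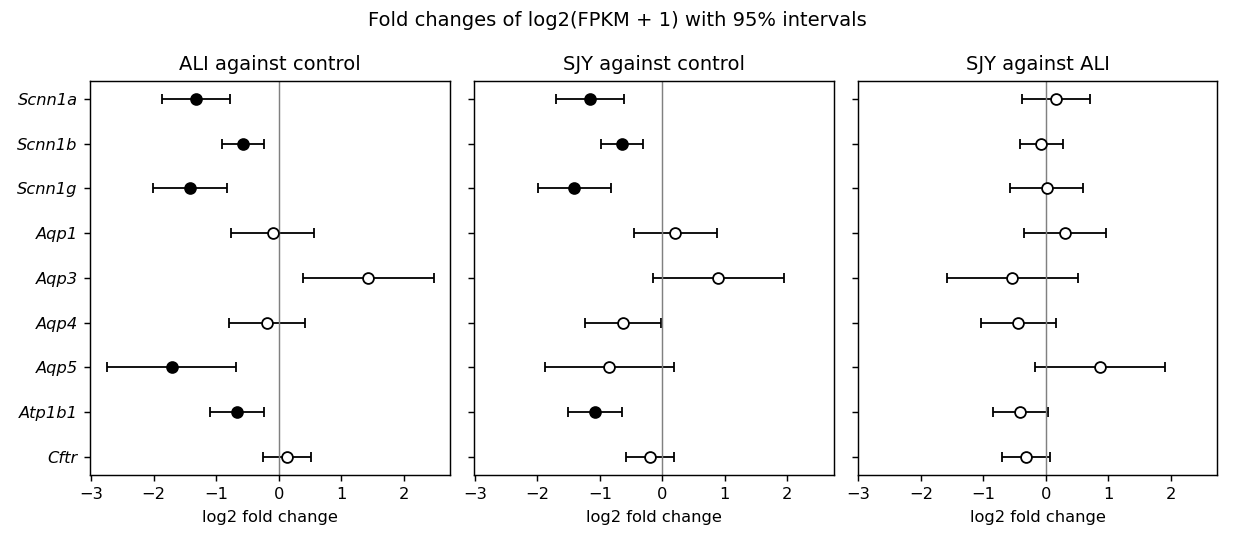
Log2 fold change of each gene (x axis, difference in mean log2(FPKM + 1)) with limma's 95% interval in ALI against control, SJY against control and SJY against ALI; filled points were called at an adjusted p under 0.05. The plot has 5 genes filled in the first panel, 4 in the second and none in the third.

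Of the marker lists of cells that carry these genes, that of type I cells was lower nearly throughout. In bulk tissue, fewer cells of a type and less RNA per cell cannot be told apart. All 10 type I cell markers were called lower in ALI than in control, beside 9.56% of all genes, and 9 of 10 in SJY, beside 18.1%. Their summed level ran from 1724 to 2674 FPKM in SJY and from 722 to 2495 FPKM in ALI, against 3293 to 4781 FPKM in control, with none at 0. The lowest ALI sum was that of ALI 1, and without it the lowest was 1452 FPKM. Of 10 type II cell markers 3 were called lower in ALI and 5 in SJY, beside the same 9.56% and 18.1% of all genes. The 10 type II markers summed to 17846 to 20368 FPKM in SJY and 6148 to 21195 FPKM in ALI, against 16638 to 25378 FPKM in control. Here too ALI 1 had the lowest ALI sum, and without it the lowest was 14077 FPKM. The receptor gene Ager, a type I marker, stood at 751 ± 195 FPKM in SJY, 583 ± 247 FPKM in ALI and 1278 ± 254 FPKM in control (SD, n = 5 each). Set against Ager in the same library, Scnn1a differed from control by −0.05 log2 units in ALI and −0.38 in SJY (exact permutation adjusted p = 0.81 and 0.19). Aqp4 set against Aqp5 differed by 1.53 in ALI and 0.22 in SJY (exact permutation adjusted p = 0.233 and 0.81), and the ALI value was 0.82 without ALI 1. Aqp5 set against Ager differed by −0.44 in ALI and −0.06 in SJY (exact permutation adjusted p = 0.286 and 0.81), and the ALI value was −0.18 without ALI 1. The part of cell numbers in the lower ENaC, Atp1b1 and Aqp5 levels was not tested.

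Neutrophil markers were far higher in both LPS-treated groups. Their 8 genes summed to 6954 to 11904 FPKM in SJY and 1335 to 15912 FPKM in ALI, against 81.0 to 129 FPKM in control. The highest ALI sum was that of ALI 1, and the ALI median was 4489 FPKM. Against control 7 of 8 were called higher in ALI, beside 8.02% of all genes, and 7 of 8 in SJY, beside 14.6%. In SJY against ALI the markers' median log2 difference was 1.00. At an unadjusted p under 0.05 were 6 of 8, beside 11.8% of all genes, and 0 were called. Without ALI 1, 6 were called higher, where 1.35% of all genes were called. In endothelium, 9 markers were matched and 8 tested, with 1 called higher and 1 lower in ALI, beside 8.02% and 9.56% of all genes. In SJY 2 were called higher and 1 lower, beside 14.6% and 18.1%. The 9 matched markers summed to 739 to 1010 FPKM in SJY, 500.4 to 921 FPKM in ALI and 663 to 955 FPKM in control, and Cldn5 was listed at 0 in every library. Aqp1 relative to the endothelial cadherin gene Cdh5 differed from control by −0.01 log2 units in SJY and −0.07 in ALI (exact permutation adjusted p = 0.994 and 0.81). Red cells also carry Aqp1, and 6 matched red cell markers summed to 3518 to 10254 FPKM in SJY, 2094 to 7210 FPKM in ALI and 365 to 6608 FPKM in control. For the airway, where Aqp3 and Aqp4 are known, 5 of 9 matched markers were tested. Of these, 2, Scgb1a1 and Tppp3, were called lower in ALI, beside 9.56% of all genes, and 0 in SJY, beside 18.1%. The basal cell keratin Krt5 did not pass the filter, at 1.46 FPKM in ALI 3 and at 0.104 FPKM or less elsewhere. ALI 3, which had the highest Aqp4 level of all libraries, also stood apart in the airway genes Bpifa1 (253 FPKM, against 6.0036 FPKM or less elsewhere) and Muc5b (60.6 FPKM, against 5.12 FPKM or less). Control 7 was close to it in Aqp4, at 15.2 FPKM, but had Bpifa1 at 0.780 FPKM and Muc5b at 0.948 FPKM. Macrophage markers summed to 224 to 362 FPKM in SJY and 204 to 394 FPKM in ALI, against 128 to 192 FPKM in control. Whether these cells had a part in the Aqp1, Aqp3 or Aqp4 values was not tested.

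**Figure D4:**
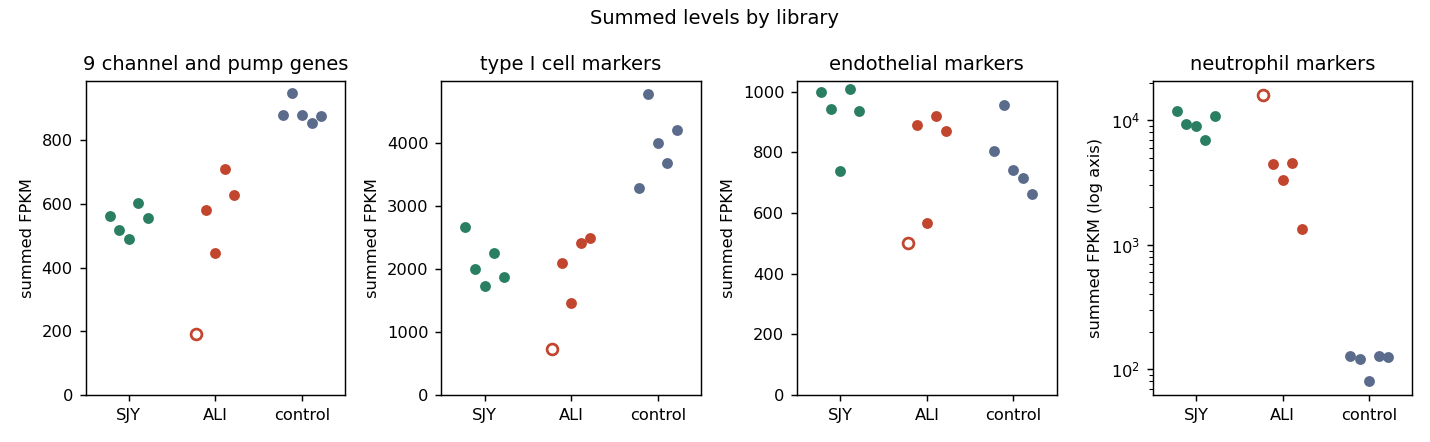
Summed FPKM (y axis, log scale for neutrophil markers) of the 9 genes and of marker lists in each library of the SJY, ALI and control groups (x axis), with ALI 1 as an open circle. The 9 genes and the type I markers lie lower in SJY and ALI than in control, endothelial markers overlap, and neutrophil markers lie between 1335 and 15912 FPKM in SJY and ALI and between 81.0 and 129 FPKM in control.

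Of genes that act on ENaC protein, more were called lower than higher in both LPS-treated groups. Of 18 listed genes for its trafficking, phosphorylation and cleavage, 17 were tested, and 0 rose and 6 fell in ALI against control, beside 8.02% and 9.56% of all genes, while 1 rose and 9 fell in SJY, beside 14.6% and 18.1%. The list's median was −0.16 in ALI, near the −0.12 of all genes, and −0.42 in SJY, against −0.11. Nedd4l, the ubiquitin ligase that takes ENaC off the membrane, was at 14.9, 17.3, 16.9, 24.6 and 24.0 FPKM in SJY, at 11.6, 23.2, 22.8, 21.1 and 20.6 FPKM in ALI, and at 32.3, 35.9, 37.4, 41.9 and 31.5 FPKM in control. It fell by 0.86 log2 units in SJY and by 0.85 in ALI (limma adjusted p = 0.00288 and 0.00577), with no overlap. Tsc22d3 (GILZ), a glucocorticoid-induced gene, averaged 143 ± 16.3 FPKM in SJY and 154 ± 59.6 FPKM in ALI, against 302 ± 33.1 FPKM in control (SD, n = 5 each; limma adjusted p = 0.00313 and 0.00609). The channel-activating protease Prss8 (prostasin) fell by 0.90 in SJY and 0.93 in ALI (limma adjusted p = 0.011 and 0.0166), and the protease Tmprss2 fell in both. In SJY the protease Tmprss4 rose by 0.78 (limma adjusted p = 0.0194). In ALI its log2 difference was 0.66 (limma adjusted p = 0.062), and without ALI 1 it was 0.79 and called (0.0261). The kinase Sgk1, a brake on Nedd4l named after its values were seen, was not called against control (log2 0.48 in SJY and 0.21 in ALI), but was called higher in both without ALI 1 (limma adjusted p = 0.00462 and 0.0118).

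The glucocorticoid receptor gene Nr3c1 was lower in both LPS-treated groups. Of 14 genes of hormone and adrenergic control, 10 were tested, with 0 higher and 4 lower in ALI and 1 higher and 7 lower in SJY against control. Over all genes 8.02% were called higher and 9.56% lower in ALI, and 14.6% and 18.1% in SJY. The list's median log2 change was −0.55 in ALI, against −0.12 over all genes, and −0.58 in SJY, against −0.11. The mineralocorticoid receptor Nr3c2 averaged 0.450 FPKM in SJY and 0.863 FPKM in ALI, against 2.65 FPKM in control. It passed the filter only through the control libraries, so its calls, counted above, are not taken as a test. The glucocorticoid receptor Nr3c1 averaged 26.7 ± 1.73 FPKM in SJY and 28.0 ± 5.66 FPKM in ALI, against 40.0 ± 3.67 FPKM in control (SD, n = 5 each), with both ranges below control. It fell by 0.56 in SJY and 0.52 in ALI (limma adjusted p = 0.00451 and 0.0129). Adrb1 fell in SJY, and Gnas, the stimulatory G protein, rose there by 0.91 (limma adjusted p = 0.00312).

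Among other routes for chloride, potassium and cotransported ions, 17 of 21 genes were tested, with 1 higher and 3 lower in ALI and 2 higher and 6 lower in SJY against control. Over all genes 8.02% were called higher and 9.56% lower in ALI, and 14.6% and 18.1% in SJY, so the higher calls were no more frequent than over all genes. Slc4a4 of this list averaged 0.673 FPKM in SJY and 1.40 FPKM in ALI, against 2.92 FPKM in control. It would not have passed the filter without the control libraries, so any call of it, counted above, is not taken as a test. Ano1, a calcium-activated chloride channel, averaged 4.89 FPKM in SJY and 6.02 FPKM in ALI, against 15.3 FPKM in control (limma adjusted p = 0.000467 and 0.00224). Slc26a4 (pendrin), an anion exchanger, averaged 4.46 FPKM in SJY and 8.84 FPKM in ALI, against 1.36 FPKM in control (limma adjusted p = 0.0187 and 0.00153). The acid-sensing channel Asic1 fell in both groups, the chloride transporter Clcn3 in SJY, by 1.47, and the potassium channel Kcnn4 rose in SJY by 0.82. Of 8 other aquaporins only Aqp9, known from neutrophils and liver, passed the filter. It averaged 7.33 ± 1.79 FPKM in SJY and 3.55 ± 2.35 FPKM in ALI, against 0.429 ± 0.200 FPKM in control (SD, n = 5 each). It passed the filter only through the LPS-treated libraries, and no p against control is given. The neutrophil markers moved with it, and their part was not tested. In SJY against ALI limma called 0 genes of these 5 lists, with 5 of 12 pump genes, 2 of 17 genes acting on ENaC, 1 of 10 hormone and adrenergic genes, 3 of 17 other ion routes and Aqp9 at an unadjusted p under 0.05, beside 11.8% of all genes. Without ALI 1, 2 genes of these lists were called between SJY and ALI, beside 1.35% of all genes. Aqp9 was higher (log2 fold change 1.23, limma adjusted p = 0.012), and the protease St14 (matriptase), named after its values were seen, was lower (−0.60, 0.0282).

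**Figure D5:**
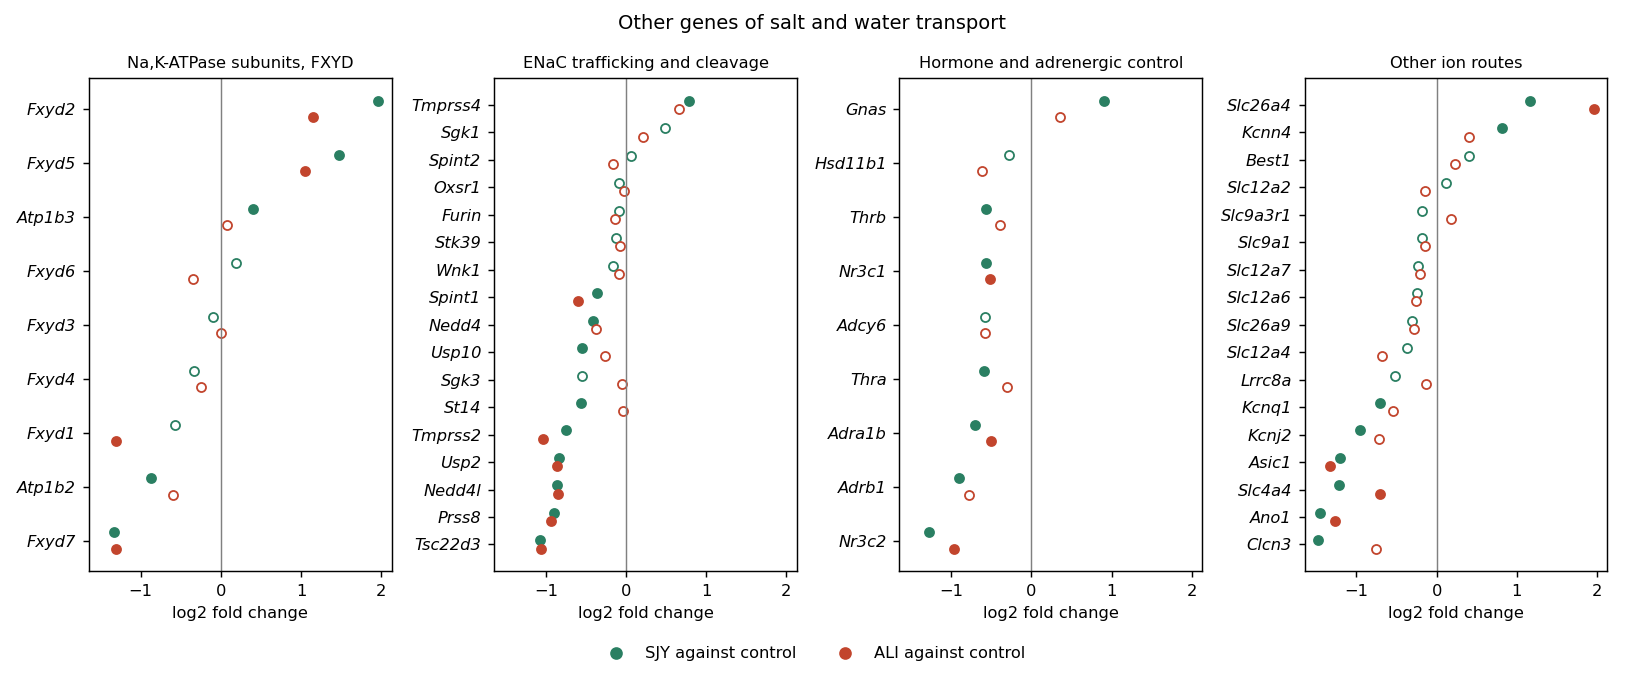
Log2 fold change (x axis) of tested genes of 4 lists in SJY against control (green) and ALI against control (red); filled points were called at an adjusted p under 0.05. Fxyd2 and Fxyd5 lie to the right and Fxyd7, Tsc22d3 and Ano1 to the left in both. Nr3c2 and Slc4a4 are drawn too, but neither would have passed the filter without the control libraries, so their points are not taken as a test.

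The genes whose centred log2 profile over the 15 libraries was nearest to that of Scnn1a, by root mean square difference, were Tp53bp2 (0.131 log2 units), Clstn1 (0.140) and Rgs6 (0.143), against a median of 0.679 over all other genes. Nearest to Aqp5 were Plac9 (0.213), Mettl7a (0.214) and C1qtnf5 (0.261), with a median of 1.00. Nearest to Aqp1 was Fgd5 (0.178), before Ldb2 and Rps6kl1, and nearest to Atp1b1 was Tob2 (0.168), before Ppm1l and Bptf. All points share library, group and scaling, so these are descriptions of likeness only.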

How the data were processed

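Lung RNA of 15 rat libraries, 5 per group, was compared. Per the submitters' processing notes, cutadapt, HISAT2 and StringTie were used with the build Rnor_6.0, and versions, strand and the roles of the tools are not given in the sources used here. The authors deposited FPKM values (named so in the file headers), and each library has a column, so depth is unknown and no counting interval can be given. A value of 0 can be a failed estimate. No pair of libraries had identical values. Reads of overlapping genes cannot be told apart without a strand setting.

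Genes at 1 FPKM or more in at least 5 libraries were kept (13457), and log2(FPKM + 1) was fitted for the 3 groups together with limma 3.58.1 in R 4.3.3 (trend and robust settings, two-sided, Benjamini-Hochberg over all genes, tested on simulated data). Ratios within a library used an exact permutation test, adjusted over 24 tests. A few genes of the lists, and 1 ratio that is among the 24 tests and their counts, are not reported here. The ratio of Aqp1 to Pecam1 had been planned, but Pecam1 was among 3 listed genes not matched, and Cdh5 was used after the data were seen. The 9 genes and all lists were chosen with earlier results of these data known. Besides the 9 genes, the text names up to 3 called genes per list, direction and comparison, genes used in the ratios and the nearest profiles. Alternatives were other scalings, filters, a pseudocount of 0.1, array weights, 2-group fits, the replicate number as a block and leaving out each library. Same-numbered libraries did not deviate together (correlations from −0.389 to 0.302), so the numbers were not taken to pair them.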

Additional observations from a re-analysis of the deposited data

Results flagged for a closer look

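Aqp1 in SJY 6, at 228 FPKM, stood above the other 4 SJY libraries (144 to 164 FPKM) by more than Dixon's limit for a group of 5. Of 27 groups of 5 values examined, 1 was marked, and chance marks about 1 in 20.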

How the results depend on the processing

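The count of the 9 genes called in ALI against control was 5, beside 2366 of 13457 genes tested. It was 2 when only those groups were fitted, beside 1307 of all genes. With the replicate number as a block it was 0, as over all genes. That fit left 1 residual degree of freedom and rested on the numbers 4 and 5. When 1 library was left out the count was 3 to 6, beside 1538 to 2890 of all genes. The block changed 1 other call of a member, that of Scnn1b in SJY against control (log2 −0.45, limma adjusted p = 0.08), and brought that of Aqp5 there (−1.10, 0.00141). The count for SJY against control (4, beside 4390 of all genes) ran from 4 to 6 over all 24 alternatives. Aqp4 and Aqp5 were both added with only those groups fitted and with array weights, beside 5743 and 7654 of all genes. For SJY against ALI the count stayed at 0 over all 24 alternatives, beside 0 to 478 of all genes. Of 24 ratio tests 5 passed, against 0 with a pseudocount of 0.1, and 0 to 6 when 1 library was left out. The causes were not tested.

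Only values that were not called changed sign. In ALI against control Aqp1 (−0.10) was 0.047 with median-of-ratios scaling, 0.37 with array weights and 0.30 with the replicate block. In SJY against ALI Scnn1a (0.17) was −0.13 and Aqp1 (0.30) −0.046 with array weights, and Scnn1g (0.01) was −0.0076 with median-of-ratios scaling, −0.084 scaled without mitochondrial genes and −0.33 with array weights. Leaving out 1 library gave −0.32 to 0.25 for Aqp1 and −0.40 to 0.00070 for Aqp4 in ALI against control. In SJY against ALI it gave −0.13 to 0.30 for Scnn1a, −0.17 to 0.0025 for Scnn1b, −0.29 to 0.19 for Scnn1g and −0.039 to 0.53 for Aqp1. For ratios it gave −0.12 to 0.25 (Scnn1g to Scnn1b) in SJY against ALI, −0.12 to 0.035 (Scnn1a to Ager) in ALI against control and −0.14 to 0.035 (Aqp5 to Ager) in SJY against control. For Aqp1 to Cdh5 it gave −0.20 to 0.036 in ALI against control, −0.069 to 0.19 in SJY against ALI and −0.14 to 0.11 in SJY against control.

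Over all genes, limma called 2366 in ALI against control, but 1307 with only those groups, 3959 with array weights, 0 with the replicate block, 1545 without control 5 and 1538 without control 7. In SJY against ALI it called 1, but 478 with array weights, 181 without ALI 1, 5 without control 5 and 0 under most other alternatives. In SJY against control it called 4390, and 7654 with array weights. Calls in SJY against control were 1959 higher and 2431 lower, but 1376 and 3830 scaled without mitochondrial genes. Depth is unknown, which limits Cftr, Nr3c2 and other genes near 1 FPKM most.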

Other observations

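Of the 8 aquaporins outside the 9 genes, 7 did not pass the filter on low values. Aqp12a ranged from 0.202 to 1.40 FPKM in SJY, from 0.227 to 0.692 FPKM in ALI and from 0.0721 to 0.599 FPKM in control, and Aqp11 stayed at 0.517 FPKM or less in every library. Aqp7 was listed at 0 in 14 libraries and at 0.179 FPKM in ALI 3.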
